A study of Mus musculus with 11 samples.

Results

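The genes described are 7 that encode subunits of the GABA-A receptor, namely Gabra2, Gabra3, Gabra4 and Gabra5 (alpha subunits), Gabrb1 and Gabrb2 (beta subunits) and Gabrd (the delta subunit). They were taken by symbol from a table of 16228 genes measured by RNA sequencing of mouse cerebral cortex. Gabra2 was selected on its level in the Control libraries, which differed between the control genotypes, so that difference is described and not tested. All 7 passed the filter on low values, as did 14330 genes in all. The series asked what the atypical protein kinases C PRKCI and PRKCZ, enzymes of cell polarity, do in the oligodendrocyte lineage, which makes myelin.

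The groups were 4 Prkci cKO libraries, labelled Ng2 Cre+ Prkci f/f, 3 Prkcz cKO libraries, labelled Ng2-Cre+ Prkcz f/f, and 4 Control libraries. Of the Control libraries, replicates 3 and 4 were labelled Pkcz f/f and replicates 1 and 2 Pkcz f/+, with no Cre named. All mice were at postnatal day 30 and untreated, and the submitters call the replicates biological. Ng2-Cre is driven by regulatory sequence of Cspg4, a gene of oligodendrocyte precursors and pericytes, while the RNA came from punches of whole cortex in which neurons carry most GABA-A receptor message. By the labels no control carried Cre, so Cre and the loss of the kinase cannot be told apart, and for Prkci cKO no control carried the floxed allele either. The labels give neither sex nor strain background.

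GABA-A receptors are chloride channels of 5 subunits that open when the transmitter GABA binds, and they carry most fast inhibition in the cortex. Most hold a pair of alpha and a pair of beta subunits with a gamma subunit, which sits at synapses, or a delta subunit, which sits outside them and gives a lasting tonic current. The alpha subunit sets the response to benzodiazepines, and the beta subunit the response to anaesthetics such as etomidate. Gabra2 and Gabra3 products are found mostly at synapses, Gabra5 gives extrasynaptic receptors that are best known in the hippocampus, and the Gabra4 product is the usual forebrain partner of delta.

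Short windows of the coding sequence show a place where the alpha genes part and another where the beta genes part. They do not measure how close the genes are over their full length. In the alpha genes the 51-base windows below lie around the codon, in capitals, that decides whether diazepam binds. It is CAC for histidine in Gabra2, Gabra3 and Gabra5, whose receptors respond to diazepam, and AGG for arginine in Gabra4, whose receptors do not. Sequences are from GENCODE M21 transcripts on GRCm38, 5′ to 3′ on the coding strand, and start at coding base 361 in Gabra2, 559 in Gabra3, 382 in Gabra5 and 457 in Gabra4.
Gabra2: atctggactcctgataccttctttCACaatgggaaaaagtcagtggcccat
Gabra3: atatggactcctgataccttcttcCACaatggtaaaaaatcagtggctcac
Gabra5: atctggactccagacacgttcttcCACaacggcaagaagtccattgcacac
Gabra4: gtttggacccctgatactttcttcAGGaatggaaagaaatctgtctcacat
Over these windows Gabra2 differs from Gabra3 at 6 of 51 bases, from Gabra5 at 12 and from Gabra4 at 15. In the beta genes the capitals mark a codon of the second membrane segment, AGC for serine in Gabrb1 and AAC for asparagine in Gabrb2, the residue on which the greater etomidate sensitivity of Gabrb2 receptors depends. These windows start at coding base 844 in Gabrb1 and 841 in Gabrb2, and they differ at 12 of 51 bases.
Gabrb1: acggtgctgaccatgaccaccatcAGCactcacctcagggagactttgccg
Gabrb2: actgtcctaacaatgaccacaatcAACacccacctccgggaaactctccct

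The samples had the markers of cortex. Slc17a7, the vesicular glutamate transporter of cortical excitatory neurons, lay between 1968 and 2224 in normalised expression over the 11 libraries, and Gad1, the GABA-making enzyme of interneurons, between 396 and 473. The depth estimated from the low values was 14810000 reads in Prkcz cKO replicate 3 and 20620000 to 28170000 in the other 10 libraries. Prkci averaged 67.0 ± 1.47 in Prkci cKO (SD, n = 4) and 87.8 ± 2.52 in Control (SD, n = 4), a log2 change of -0.39 (limma adjusted p = 9.836e-04). Prkcz averaged 278 ± 15.1 in Prkcz cKO (SD, n = 3) and 323 ± 20.2 in Control (SD, n = 4), a log2 change of -0.22 (limma adjusted p = 0.0966, above the threshold of 0.05). In whole tissue, fewer cells of a type and less RNA per cell cannot be told apart.

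Gabra2 was high in the 2 Control f/f libraries and at one lower level in the other 9. Its normalised expression, the deposited value used throughout, was 41.8, 49.2, 54.4 and 46.7 in Prkci cKO replicates 1 to 4. It was 50.2, 47.9 and 42.3 in Prkcz cKO replicates 1 to 3. It was 102.5 and 98.3 in the Control f/f libraries, against 44.4 and 43.9 in the Control f/+ libraries. The f/f libraries stood above all others without overlap, while Prkci cKO, Prkcz cKO and Control f/+ shared one range. The Prkcz cKO mice, also labelled homozygous for a floxed Prkcz allele (spelled Pkcz in the control labels), lay in the low range. The means were 100.4 ± 3.00 in Control f/f and 44.1 ± 0.354 in Control f/+ (SD, n = 2 each), a ratio of 2.28. These values chose the gene, so no test is given.

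**Figure D1:**
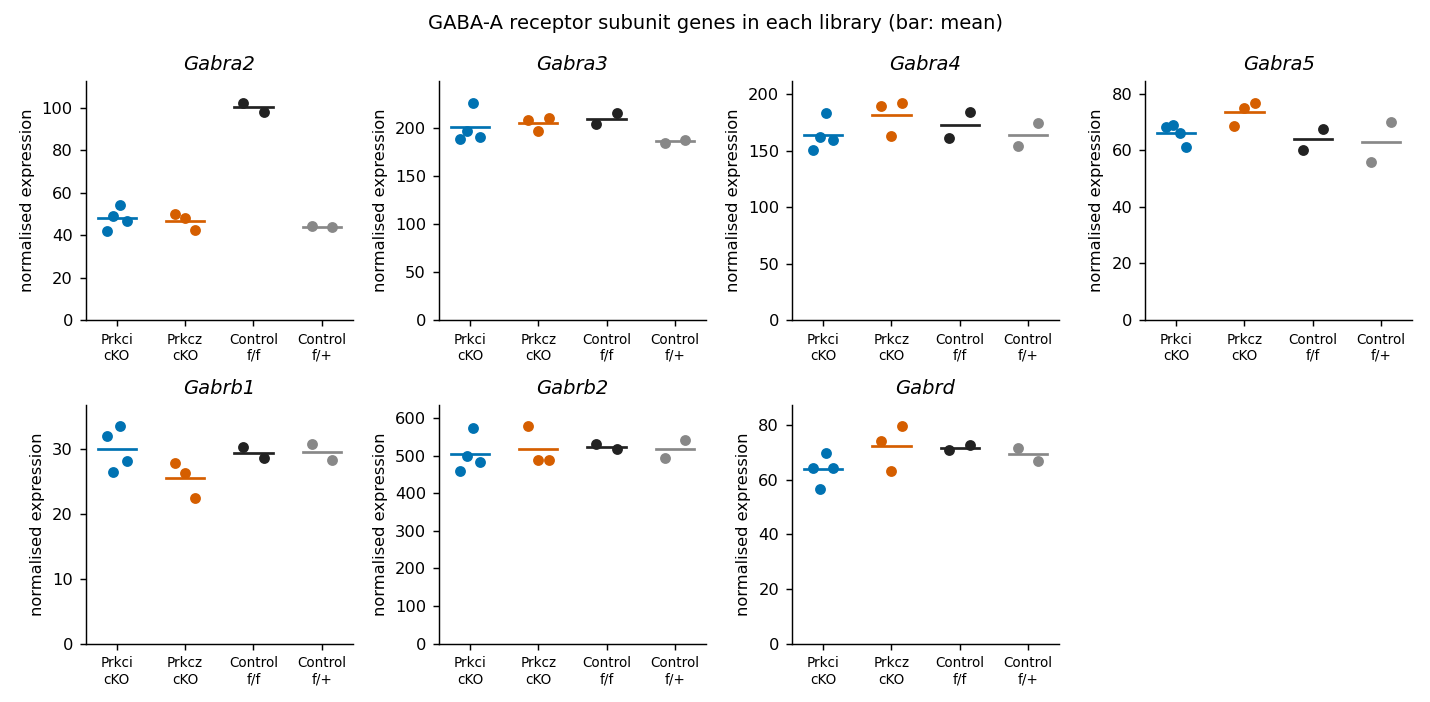
Normalised expression of the 7 subunit genes (y axis, from 0) in each library (points), with the mean of each genotype as a bar, for Prkci cKO (n = 4), Prkcz cKO (n = 3), Control f/f (n = 2) and Control f/+ (n = 2). Gabra2 lies at 98.3 and 102.5 in Control f/f and between 41.8 and 54.4 in the other 9 libraries, while the other 6 genes show no such gap.

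A difference of this size between the control genotypes was uncommon in the table. With no test, 30 of 14330 genes, 0.209%, had a log2 difference of at least 1 between f/f and f/+ libraries without overlap, 18 of them higher in f/f and 12 lower. Only 4 of the 30 had a mean log2 value of at least 5, namely Gabra2, Gm5506, Cdr1 and Fam160b1, the last 3 of which were named after their values were seen. Gabra2 was the 1 member among the 30, as its choice fixed. The other 6 members had f/f over f/+ ratios between 0.996 for Gabrb1 and 1.13 for Gabra3.

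Set against all 4 controls, Gabra2 gave wide intervals, and the controls held both levels. The log2 change was -0.47 in Prkci cKO (SE 0.237, 95% interval -0.98 to 0.04, limma adjusted p = 0.467). It was -0.51 in Prkcz cKO (SE 0.256, 95% interval -1.06 to 0.04, limma adjusted p = 0.373). Neither passed the threshold, and the control genotype taken decided both size and sign. Against Control f/f alone the log2 change was -1.06 (SE 0.0950) in Prkci cKO and -1.10 (SE 0.1001) in Prkcz cKO. Against Control f/+ alone it was 0.12 (SE 0.0960) in Prkci cKO and 0.08 (SE 0.101) in Prkcz cKO. Gabra2 was the 1 member of 7 called against f/f alone, where 0.927% of genes were called in Prkci cKO and 0.414% in Prkcz cKO, but nothing is read from it, since the same control libraries picked the gene. The comparison of Prkci cKO with Prkcz cKO uses no control library, and there the log2 difference was 0.03 (limma adjusted p = 0.960). Its 95% interval was -0.52 to 0.59 with the spread of all 11 libraries and -0.16 to 0.23 when the knockouts were fitted alone.

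Ratios taken inside each library set Gabra2 against subunits that share its depth and scaling. The ratio of Gabra2 to Gabra4 was 0.534 and 0.637 in Control f/f, against 0.220 to 0.304 in the other 9 libraries. The ratio to Gabra3 was 0.455 and 0.502 in Control f/f, against 0.201 to 0.249 elsewhere. The ratio to Gabrb1, a partner subunit, was 3.38 and 3.44 in Control f/f, against 1.31 to 1.89 elsewhere. The f/f libraries stood apart by each of these ratios. Gabra2 was chosen by its values in these libraries, so the ratios describe the same gap and add no support to it. The ratios are of values not divided by length, so only their differences between libraries are meaningful.

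**Figure D2:**
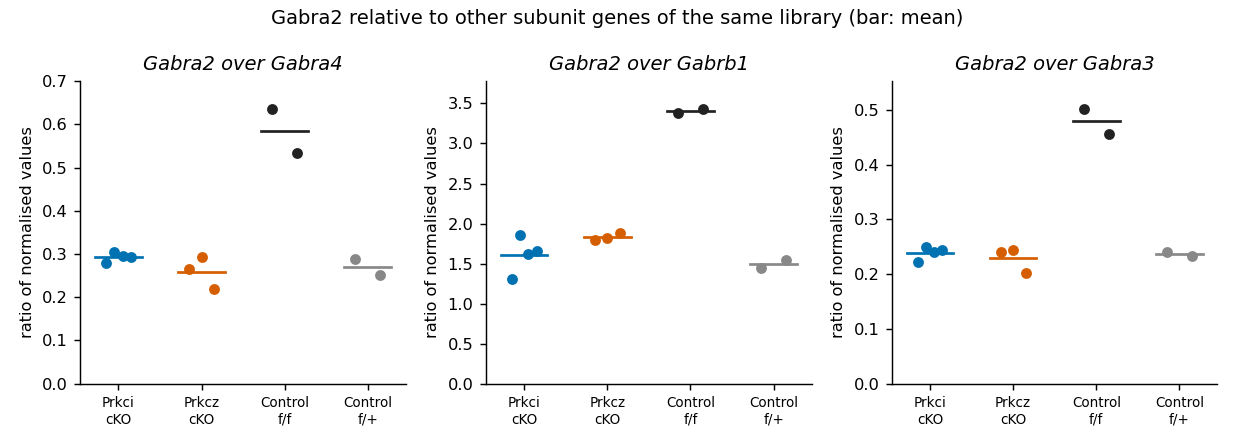
Ratio of Gabra2 to Gabra4, Gabrb1 and Gabra3 in the same library (y axis, ratio of normalised values, from 0), 1 point per library and a bar at the mean, for Prkci cKO, Prkcz cKO, Control f/f and Control f/+. The 2 Control f/f points lie above all 9 others in each panel, at 0.534 and 0.637 against at most 0.304 for Gabra4. Gabra2 was chosen by its Control values, so this is a description only.

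Gabra2 lies on the minus strand of chromosome 5 at chr5:70957597-71095849 (GRCm38) with no annotated gene across it, in a cluster with Gabrg1, Gabra4 and Gabrb1. Its 10 nearest measured protein-coding genes, 5 on each side, did not share its gap between control genotypes. Their log2 differences of f/f minus f/+ lay between -0.30 for Guf1 and 0.18 for Kctd8. Gabrg1, next to Gabra2 on the lower side, averaged 22.5 ± 1.98 in Control f/f and 20.2 ± 0.566 in Control f/+ (SD, n = 2 each). None of the 10 passed the threshold in any of the 3 comparisons (limma). In Prkci cKO, Prkcz cKO and between the knockouts 0, 2 and 2 had an unadjusted p under 0.05, against 12.1%, 15% and 16% of all genes. Prkcz itself, on chromosome 4, had an f/f over f/+ ratio of 0.923.

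**Figure D3:**
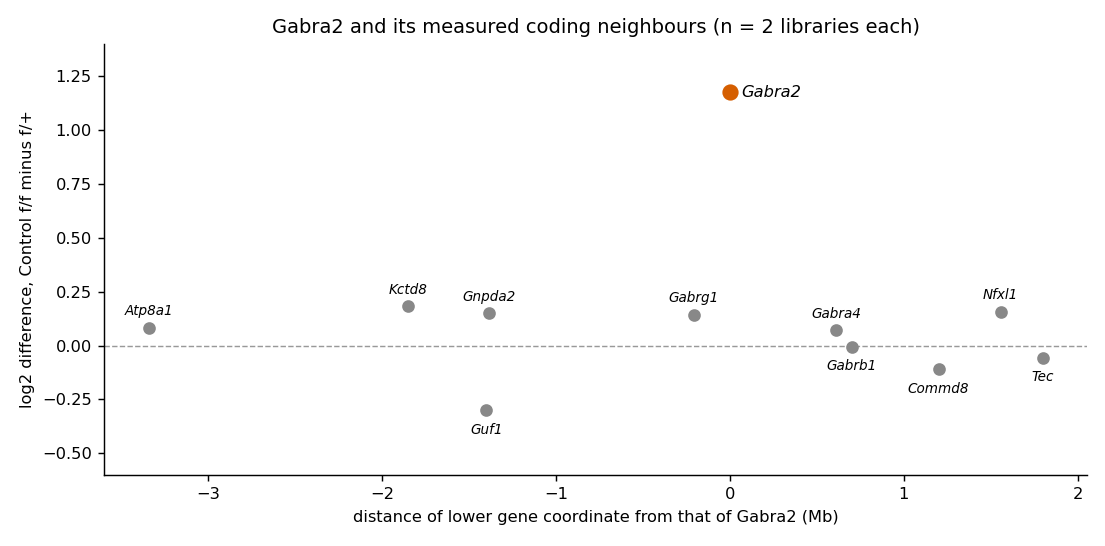
Log2 difference of Control f/f minus Control f/+ (y axis, n = 2 libraries each) for Gabra2 and its 10 nearest measured protein-coding genes, by the distance of each gene's lower coordinate from that of Gabra2 in megabases (x axis). Gabra2 lies at 1.18 and its neighbours between -0.30 and 0.18.

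The genes with values most like those of Gabra2 over the 11 libraries, by Pearson r on the log2 scale among 12132 genes, were Pnrc1 (r = 0.946), Ptgs2 (0.925), Hspa1b (0.918), Hsph1 (0.918) and Cyr61 (0.912). Ptgs2 is cyclooxygenase 2, and Hspa1b and Hsph1 encode heat shock proteins. The lowest r were those of Lrp3 (-0.948), Hnrpdl (-0.931), Cspg5 (-0.928), Fis1 (-0.922) and Cirbp (-0.921), of which Cirbp encodes a cold-inducible RNA-binding protein. These r are descriptions, since the ranking used the f/f libraries by which Gabra2 was chosen. Without the 2 f/f libraries (n = 9) r was 0.830 for Pnrc1, 0.641 for Ptgs2, 0.773 for Hspa1b, 0.317 for Hsph1 and 0.133 for Cyr61. It was -0.627 for Lrp3, -0.732 for Hnrpdl, -0.449 for Cspg5, -0.681 for Fis1 and -0.405 for Cirbp. Hsph1 lay at 516 and 532 in Control f/f and between 388 and 446 in the other 9 libraries. Cirbp lay at 25.4 and 26.4 in Control f/f and between 34.7 and 44.0 in the others. The summed value of 13 immediate early genes, which follow recent neuronal activity and handling, was 466 to 556 in Prkci cKO, 346 to 543 in Prkcz cKO, 1130 and 1267 in Control f/f and 1106 and 603 in Control f/+. The summed value of 12 mature oligodendrocyte markers was 2726 to 4410 in Prkci cKO, 3711 to 4073 in Prkcz cKO, 5200 and 5684 in Control f/f and 6789 and 7867 in Control f/+. The f/f libraries had the highest immediate early gene sums, close to that of Control f/+ replicate 1, and oligodendrocyte sums between those of the knockouts and of Control f/+. Gabra2 did not follow either sum in all libraries. It was 44.4 in Control f/+ replicate 1, at an immediate early gene sum of 1106. The knockouts and Control f/+, with oligodendrocyte sums on either side of those of f/f, shared the low range of Gabra2. None of the markers summed was below 1 throughout, and their part in the Gabra2 difference was not tested.

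Over all 7 members no log2 change passed the threshold of 0.05 in any comparison. In Prkci cKO against Control limma called 0 of 7, against 1.61% of all genes tested, and 0 of 7 had an unadjusted p under 0.05, against 12.1%. In Prkcz cKO against Control it called 0 of 7, against 0.649%, and 2 of 7 had an unadjusted p under 0.05, against 15%. In Prkci cKO against Prkcz cKO it called 0 of 7, against 0.3%, and 2 of 7 had an unadjusted p under 0.05, against 16%. The median log2 change of the 7 was -0.04, 0.03 and -0.04 in these comparisons in that order, and that of all genes tested lay within 0.01 of 0. The comparisons share libraries, so their values are given side by side only.

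**Figure D4:**
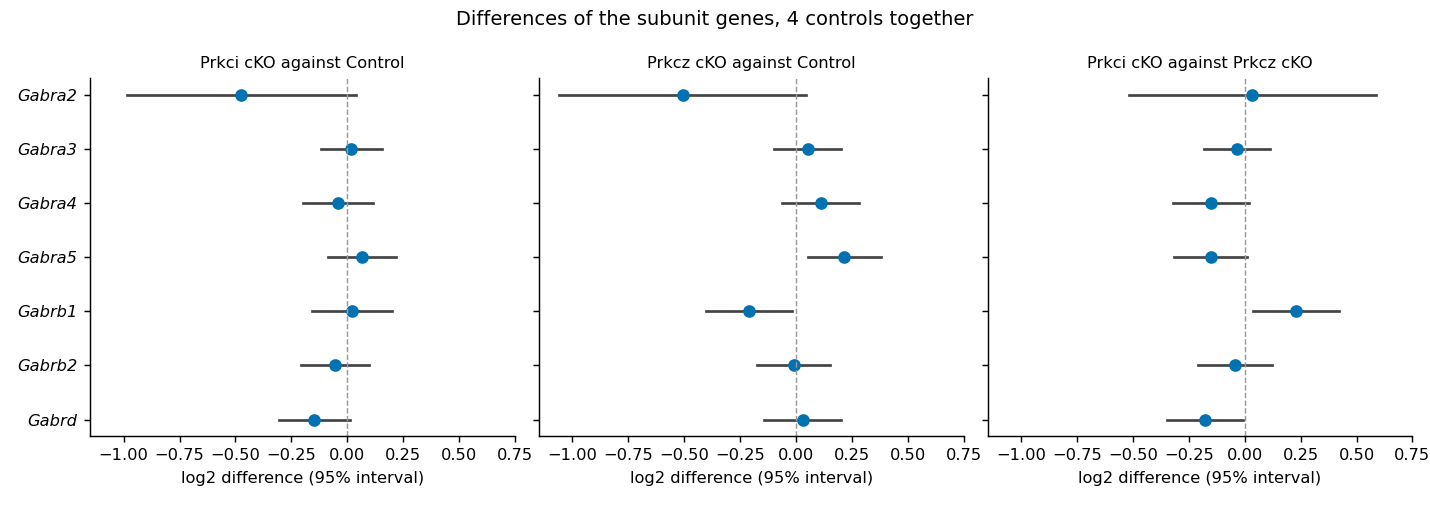
Log2 difference (x axis, point) with its 95% limma interval (line) for each of the 7 subunit genes (rows) in Prkci cKO against Control, Prkcz cKO against Control and Prkci cKO against Prkcz cKO, with the 4 controls together. Gabra2 has the widest interval in each panel, and the other 6 genes lie between -0.21 and 0.23.

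Gabra3, carried on the X chromosome at X:72432681-72656848 (minus strand), overlapped across the genotypes. It read 188, 197, 227 and 191 in Prkci cKO, 208, 197 and 210 in Prkcz cKO, 204 and 216 in Control f/f and 185 and 188 in Control f/+. The groups overlapped, although both f/f libraries were above both f/+ libraries. The log2 change was 0.02 in Prkci cKO (95% interval -0.12 to 0.16, limma adjusted p = 0.945) and 0.05 in Prkcz cKO (95% interval -0.10 to 0.20, limma adjusted p = 0.745).

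Gabra4, the partner of delta, read 150, 162, 183 and 159 in Prkci cKO, 190, 163 and 192 in Prkcz cKO, 161 and 184 in Control f/f and 154 and 174 in Control f/+. Replicates 1 and 3 of Prkcz cKO were the 2 highest libraries, but its replicate 2 lay among the others. The log2 change was -0.04 in Prkci cKO (limma adjusted p = 0.877) and 0.11 in Prkcz cKO (limma adjusted p = 0.539). Between Prkci cKO and Prkcz cKO the log2 difference was -0.15 (SE 0.0794, limma adjusted p = 0.364). The end of Gabra4 (chr5:71569749-71658308, minus strand) overlaps the start of Gabrb1 (chr5:71658113-72149037, plus strand), and no source used here says if strand was used in counting.

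Gabra5, on chr7:57407672-57510059 (minus strand), read 68.16, 68.99, 65.89 and 61.15 in Prkci cKO, 68.60, 75.03 and 76.74 in Prkcz cKO, 60.18 and 67.35 in Control f/f and 55.74 and 70.09 in Control f/+. The 2 highest libraries were both Prkcz cKO, and the third overlapped Control. The log2 change was 0.22 in Prkcz cKO (SE 0.0764, unadjusted p = 0.0136 in limma), the smallest unadjusted p of any member, and it did not pass the threshold (limma adjusted p = 0.216). In Prkci cKO it was 0.06 (limma adjusted p = 0.781). Its span overlaps that of Gm9962, so its count is uncertain.

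Gabrb1 was the member whose Prkcz cKO and Control libraries did not overlap. It read 32.02, 26.53, 33.53 and 28.18 in Prkci cKO, 27.95, 26.35 and 22.42 in Prkcz cKO, 30.33 and 28.60 in Control f/f and 30.80 and 28.37 in Control f/+. All 3 Prkcz cKO libraries were below all 4 Control libraries, the nearest by little. That made 1 of 7 members lower without overlap, against 6.72% of all genes, and 0 of 7 higher, against 5.16%. In Prkci cKO against Control 0 of 7 were apart, against 5.32% of genes lower and 3.18% higher, and between the knockouts 0 of 7, against 6.43% lower and 7.36% higher. The log2 change of Gabrb1 in Prkcz cKO was -0.21 (SE 0.0893, unadjusted p = 0.0353 in limma) and did not pass the threshold (limma adjusted p = 0.296). Prkci cKO minus Prkcz cKO gave 0.23 (SE 0.0893, limma adjusted p = 0.251). Both rested in part on Prkcz cKO replicate 3, the shallowest library. Without it the log2 change was -0.12 against Control and 0.14 between the knockouts.

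Astrocytes also carry Gabrb1 message. The summed value of 9 astrocyte markers was 5805 to 6560 in Prkci cKO and 5592, 5526 and 4409 in Prkcz cKO replicates 1 to 3, against 5834 and 5784 in Control f/f and 6135 and 6371 in Control f/+. It was lowest in the library with the lowest Gabrb1. The other libraries did not all follow. The highest Gabrb1, 33.53 in Prkci cKO replicate 3, stood at a sum of 5940, and Control f/+ replicate 2 had 28.37 at a sum of 6371. Of these 9 markers 1 fell in Prkcz cKO and 0 rose, against 0.649% of all genes tested called in either direction. An unadjusted p under 0.05 (limma) was found for 15% of all genes and for 5 of the 9 markers. Their log2 changes lay between -0.46 and -0.04 with a median of -0.20, and none was below 1 throughout. Their part in the Gabrb1 values was not tested.

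Gabrb2, the most abundant member per length, overlapped across the genotypes. It read 459, 499, 572 and 483 in Prkci cKO, 577, 489 and 488 in Prkcz cKO, 530 and 518 in Control f/f and 493 and 543 in Control f/+. One library of each knockout, Prkci cKO replicate 3 and Prkcz cKO replicate 1, lay above all controls, and the other 5 below the Control median of 524. The log2 change was -0.05 in Prkci cKO (95% interval -0.21 to 0.10, limma adjusted p = 0.829) and -0.01 in Prkcz cKO (95% interval -0.17 to 0.15, limma adjusted p = 0.962). The gene lies at chr11:42419757-42629028 (plus strand) with no annotated gene across it.

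Gabrd read 64.3, 56.5, 69.6 and 64.3 in Prkci cKO, 74.2, 63.0 and 79.4 in Prkcz cKO, 70.7 and 72.6 in Control f/f and 71.6 and 66.9 in Control f/+. Prkci cKO replicates 1, 2 and 4 lay below all controls, and replicate 3 lay among them. The log2 change was -0.15 in Prkci cKO (SE 0.0736, limma adjusted p = 0.459) and -0.09 without its replicate 2. In Prkcz cKO it was 0.03 (limma adjusted p = 0.882). Prkci cKO minus Prkcz cKO gave -0.18 (SE 0.0795, unadjusted p = 0.0431 in limma, adjusted p = 0.300), and without Prkcz cKO replicate 3 it gave -0.11.

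The libraries differed in the summed value of striatum markers, and the tissue taken and the genotype cannot be told apart in it. The summed value of 15 striatum markers was 1070, 726, 1168 and 954 in Prkci cKO replicates 1 to 4. It was 1222, 1259 and 2468 in Prkcz cKO replicates 1 to 3, against 1592 and 1931 in Control f/f and 1951 and 1256 in Control f/+. The sums of all 4 Prkci cKO libraries were below those of every other library. None of the 15 markers was below 1 throughout. In Prkci cKO 0 of 15 passed the threshold in limma, against 1.61% of all genes. An unadjusted p under 0.05 was found for 15 of 15, against 12.1%, with a median log2 change of -0.88. Prkci cKO replicate 2 had the lowest marker sum and the lowest Gabrd, and Prkcz cKO replicate 3 the highest of both. The other libraries did not all follow, since Prkcz cKO replicates 1 and 2 had near-equal sums of 1222 and 1259 and Gabrd values of 74.2 and 63.0. The part of this in the Gabrd values was not tested.

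**Figure D5:**
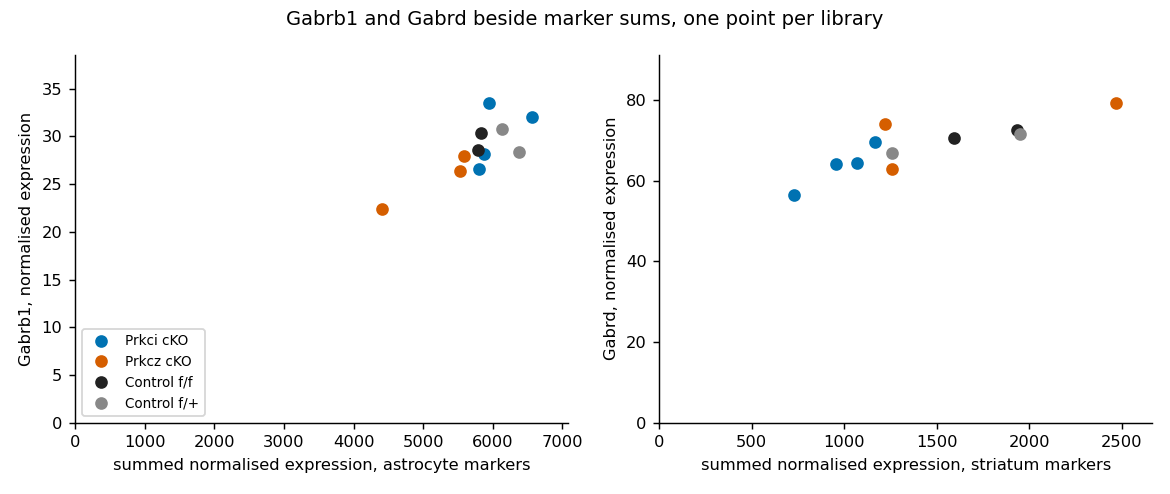
Left, Gabrb1 (y axis, normalised expression) by the summed value of 9 astrocyte markers (x axis); right, Gabrd by the summed value of 15 striatum markers; 1 point per library, coloured by genotype. The lowest Gabrb1, 22.4 in Prkcz cKO replicate 3, stands at the lowest astrocyte sum, 4409, and the lowest Gabrd, 56.5 in Prkci cKO replicate 2, at the lowest striatum sum, 726. The other libraries do not all follow in either panel.

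Gabrd is a neighbour of one of the targeted genes. It lies at chr4:155384980-155398112 (minus strand), 23619 bases above the end of Prkcz (chr4:155260129-155361361). Prkcz cKO and Control values of Gabrd overlapped, as given above. None of the 10 nearest measured protein-coding genes of Gabrd, among them Prkcz, passed the threshold in any comparison (limma). In Prkci cKO, Prkcz cKO and between the knockouts 0, 2 and 4 had an unadjusted p under 0.05, against 12.1%, 15% and 16% of all genes. The 4 were Ski, Prkcz, Nadk and Slc35e2, all lower in Prkcz cKO than in Prkci cKO, by log2 differences of 0.13 to 0.18. Pex10 and Rer1 went the other way, by 0.08 each. The cause was not tested. Over the 10 genes the log2 differences of Control f/f minus f/+ lay between -0.26 for Morn1 and 0.06 for Nadk.

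Levels can be compared between genes only per length. Per kilobase of coding sequence the mean over the 11 libraries was 334 for Gabrb2, 126 for Gabra3, 98.2 for Gabra4, 50.8 for Gabrd, 48.3 for Gabra5, 41.8 for Gabra2 and 20.1 for Gabrb1. The ranges of Gabrd, 41.9 to 58.9, and Gabra5, 40.1 to 55.2, overlapped, so their order is not settled. By coding length alone, Gabra2 changed its place with the genotype. It lay at 72.6 and 75.8 per coding kilobase in Control f/f, above both Gabrd and Gabra5. Elsewhere it lay at 30.9 to 40.2, below nearly all of their values. Per kilobase of all annotated exons the 7 means over the 11 libraries kept the order of the coding means. They were 125 for Gabrb2, 52.0 for Gabra3, 40.7 for Gabra4, 35.6 for Gabrd, 22.6 for Gabra5, 9.66 for Gabra2 and 2.07 for Gabrb1. By exon length Gabra2 did not change its place in Control f/f. There it averaged 17.2, below Gabra5 at 21.4 and Gabrd at 37.3.

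Of the other GABA-A subunit genes, Gabrg1 and Gabrg3, which encode gamma subunits, are reported here, and Gabrq was near 0 and was not tested. Gabrg1 averaged 22.0 ± 3.23 in Prkci cKO (SD, n = 4), 22.3 ± 1.98 in Prkcz cKO (SD, n = 3) and 21.4 ± 1.74 in Control (SD, n = 4), and Gabrg3 averaged 7.71 ± 0.581, 6.99 ± 1.078 and 7.85 ± 1.63 in the same order. Neither passed the threshold or had an unadjusted p under 0.05 in any comparison (limma). The f/f over f/+ ratio was 1.11 for Gabrg1 and 0.825 for Gabrg3. Gabra6, Gabre, Gabrp, Gabrr1, Gabrr2 and Gabrr3 were not found by symbol among the 16228 genes and so were not analysed.

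The rest of the GABA pathway gave 1 call, in Prkci cKO against Control, where 1.61% of all genes tested were called. Of 10 chloride balance genes, which set the driving force through these receptors, 1 fell in Prkci cKO and 0 in Prkcz cKO or between the knockouts. In the same order 3, 4 and 5 had an unadjusted p under 0.05 (limma), against 12.1%, 15% and 16% of all genes tested. The gene that fell was Slc12a2, the chloride importer NKCC1, at 82.5, 79.4, 69.0 and 91.4 in Prkci cKO, against 99.6 and 98.3 in Control f/f and 118 and 123 in Control f/+. All 4 Prkci cKO libraries were below all controls, and the f/f controls lay between Prkci cKO and f/+. Its log2 change was -0.44 (SE 0.0952, limma adjusted p = 0.0310) and the call was lost against Control f/f alone (log2 change -0.30, adjusted p = 0.194) and when any of 5 libraries was left out. In Prkcz cKO Slc12a2 read 85.7, 89.1 and 73.0, a log2 change of -0.41 (limma adjusted p = 0.0955). Slc12a2 is also expressed by oligodendrocyte precursors. Of 8 precursor markers 3 fell in Prkci cKO, namely Gpr17, Bcas1 and Olig2, against 1.61% of all genes tested called there. In Prkcz cKO 2 fell, Gpr17 and Bcas1, against 0.649%, and 0 rose past the threshold in either knockout. The 8 did not share 1 direction. Their log2 changes lay between -0.95 and 0.39 in Prkci cKO and between -1.17 and 0.30 in Prkcz cKO. The highest in Prkci cKO was that of Cspg4 (limma adjusted p = 0.0764). The summed value of the 8 was 275 to 332 in Prkci cKO and 254 to 288 in Prkcz cKO. It was 379 and 391 in Control f/f and 409 and 434 in Control f/+. Of 12 mature oligodendrocyte markers 11 fell in Prkci cKO and 5 in Prkcz cKO. None of either list was below 1 throughout, and their part in the Slc12a2 values was not tested. Slc12a5, the neuronal chloride exporter KCC2, had a log2 change of 0.10 in Prkci cKO (limma adjusted p = 0.483).

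No other list of the pathway held a gene past the threshold in limma. Over all genes tested 12.1%, 15% and 16% had an unadjusted p under 0.05 in Prkci cKO, Prkcz cKO and between the knockouts. Of 20 genes of receptor anchoring and trafficking 0 passed in each comparison, and 1, 3 and 4 had an unadjusted p under 0.05 in Prkci cKO, Prkcz cKO and between the knockouts. The smallest p in either knockout against Control was that of Rdx, the anchor of extrasynaptic Gabra5 receptors, with a log2 change of -0.18 in Prkci cKO (limma adjusted p = 0.0757) and -0.20 in Prkcz cKO (limma adjusted p = 0.0852). Between the knockouts it was that of Trak1, a trafficking adaptor, with a log2 difference of 0.24, higher in Prkci cKO (limma adjusted p = 0.106). Of 10 genes of GABA synthesis, transport and breakdown 0 passed, and 1, 2 and 3 had an unadjusted p under 0.05. Among them Gad1 had a log2 change of 0.12 in Prkcz cKO (limma adjusted p = 0.317), Glul, the glutamine synthetase of astrocytes, one of -0.21 there (limma adjusted p = 0.146), and Slc6a11, the GABA transporter GAT-3, one of 0.15 in Prkci cKO (limma adjusted p = 0.231).

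The receptors beside GABA-A were likewise without a call. Of 6 GABA-B receptor genes 0 passed, and 0, 1 and 0 had an unadjusted p under 0.05. Of 3 glycine receptor genes 0 passed, and 0, 0 and 2 had one. Of 15 glutamate receptor genes 0 passed, and 3, 1 and 0 had one. Of 13 interneuron markers 0 passed, and 2, 1 and 3 had one, with a median log2 change of 0.06 in Prkci cKO and 0.09 in Prkcz cKO. Of 11 general and excitatory neuron markers 0 passed, and 4, 2 and 2 had one, with a median of 0.09 in Prkci cKO and 0.03 in Prkcz cKO. Each triple is in the order Prkci cKO against Control, Prkcz cKO against Control and Prkci cKO against Prkcz cKO. Over all genes tested the shares with an unadjusted p under 0.05 (limma) were 12.1%, 15% and 16% in that order.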

How the data were processed

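RNA from punches of cerebral cortex was sequenced as 11 libraries. For each gene the authors deposited a normalised signal with 2 decimals, whose columns sum to 1021767 to 1082562. No source used here gives the scaling. Per the submitters' processing notes, FastQC, Trim Galore, STAR, RSEM and edgeR were used on GRCm38. Of values under 0.5, 86.3% to 89.8% lay within 0.005 of a whole multiple of 1 step per library, which gave the depth estimates. This share was too low to treat the values as whole reads, so limma was used and not a count test.

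Values were taken as log2(value + 0.5), which understates changes of low genes. The filter asked for a value of at least 1 in 3 or more libraries. All 11 libraries entered one limma 3.58.1 fit (under R 4.3.3) with trended variances, a term per group and no other term. Two-sided p-values were adjusted over all 14330 genes by the method of Benjamini and Hochberg, and 0.05 was the threshold. The fit was also run on simulated data, with values drawn independently and no difference between control genotypes. That run does not bear on the split of the controls or on shifts in the count of genes called. The members and gene lists were chosen with earlier results of these data known. Genes named are all members, the targeted genes, other subunits, up to 4 genes of smallest p per list, the 5 highest and 5 lowest in likeness to Gabra2 (mean log2 at least 2) and the 5 nearest neighbours on each side of Gabra2 and Gabrd. Some genes that this rule names are not reported. Positions, lengths and coding sequence come from GENCODE M21. Alternatives covered the pseudocount, filter, scaling, variance trend, groups fitted, control genotype, replicate block, array weights and each library left out. Figures were drawn with matplotlib 3.10.9.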

Additional observations from a re-analysis of the deposited data

How the results depend on the processing

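Of 469 log2 changes of the 7 genes under 23 alternatives per comparison with Control and 21 between the knockouts, 2 passed the threshold, both of Gabra2 against Control f/f alone (adjusted p = 2.858e-04 in Prkci cKO and 3.596e-04 in Prkcz cKO), the libraries by which it was chosen. Signs turned in 23, at sizes of at most 0.0677 for members other than Gabra2. Against f/+ alone Gabra2 read 0.115 in Prkci cKO and 0.0810 in Prkcz cKO. Against f/f alone Gabra3 read -0.0677 in Prkci cKO and -0.0333 in Prkcz cKO. With array weights the turned values were -0.0110 (Gabra3) and -0.0124 (Gabrb1) in Prkci cKO, -0.0537 (Gabrd) in Prkcz cKO and -0.0121 (Gabra2) between the knockouts. With upper quartile scaling Gabrb2 read 0.0131 in Prkcz cKO, and with the replicate block Gabra2 read -0.0535 between the knockouts. Leaving out 1 library gave, in Prkci cKO, -0.0408 to 0.0603 for Gabra3, -0.0976 to 0.0022 for Gabra4 and -0.0333 to 0.0775 for Gabrb1. In Prkcz cKO it gave -0.0903 to 0.0306 for Gabrb2 and -0.0421 to 0.123 for Gabrd, and between the knockouts -0.0360 to 0.0976 for Gabra2 and -0.106 to 0.0369 for Gabrb2.

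The count of genes called in Prkci cKO, 230, was 132 against f/f alone, 346 with array weights and 94 to 350 leaving out 1 library (147 without Prkci cKO replicate 1, 94 without its replicate 2 and 350 without Prkcz cKO replicate 3). The count in Prkcz cKO, 93, was 53 with upper quartile scaling, 28 in a fit of only these 2 groups, 30 with untrended variances, 59 against f/f alone and 12 to 111 leaving out 1 library (27 and 50 without Control replicates 1 and 2, 52 and 44 without Prkci cKO replicates 1 and 2, and 12 and 13 without Prkcz cKO replicates 2 and 3). The count between the knockouts, 43, was 112 with array weights and 10 to 151 leaving out 1 library (10, 14 and 19 without Prkci cKO replicates 1, 2 and 4, and 151 and 16 without Prkcz cKO replicates 1 and 3). The cause of these shifts was not tested. Whether replicate numbers pair the samples is not settled. Deviations of same-numbered libraries correlated at -0.186 to 0.196, with 5 of 10 pairs over 0.1. Those of differently numbered libraries correlated at -0.229 to 0.272. With the replicate block 73 genes were called between the knockouts, and no member was called. For Slc12a2 in Prkci cKO the call was also lost with untrended variances (adjusted p = 0.0839) and without Control replicate 1 or 2 or Prkci cKO replicate 1, 2 or 3 (adjusted p = 0.0709 to 0.103), and in Prkcz cKO it passed against f/+ alone (adjusted p = 0.0373). Depth is known only as an estimate, and with 2 libraries per control genotype the spread within each is poorly known.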
